A study of Mus musculus with 4 samples.

Results

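The genes described here encode the heat shock proteins and chaperonins, 70 of the 18113 genes on the arrays. They were chosen by name alone: HSPA, HSPB, HSPD, HSPE, HSPH, HSP90, DNAJA, DNAJB and DNAJC names, CCT followed by a digit, and TCP1. The name rule uses no measured value, but it was chosen with earlier results of these data known. All 70 names matched a RefSeq symbol. They comprised 9 subunit genes of the cytosolic chaperonin TRiC/CCT (including Cct6b, a testis form), both mitochondrial chaperonin genes, 10 HSP70 genes, 2 HSP110 genes, 3 HSP90 genes, 6 small heat shock protein genes with 1 partner gene (Hspbap1), and 37 genes of J-domain proteins, written DNAJ. Of the 70 genes, 38 gave a level at or above 6 on at least 1 array.

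Molecular chaperones bind unfolded or partly folded proteins and help them reach or keep their native shape. HSP70 proteins grip short exposed stretches of a client in cycles of ATP hydrolysis, which J-domain proteins trigger. HSP90 acts later on signaling kinases and receptors. The chaperonins are barrels that enclose a client: TRiC/CCT folds actin, tubulin and cell cycle proteins in the cytosol, and HSP60 with its lid HSP10 folds imported proteins in the mitochondrial matrix. Many of these genes are induced by heat shock factor HSF1. Growing blood progenitors carry a high load of newly made protein for these machines.

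RNA came from cultured C57BL6/J mouse fetal liver progenitors, selected on embryonic day 13.5 with magnetic beads as c-Kit+ Ter119- cells. The 4 cultures were wild type with control retrovirus, wild type with ETV6-RUNX1, Btg1-/- with control retrovirus and Btg1-/- with ETV6-RUNX1, a fusion of 2 transcription factors found in childhood leukemia. All 4 were infected, and all grew for 12 days in medium with 10 ng/ml FLT-3L, 20 ng/ml IL-7 and 100 ng/ml SCF. Cells were expanded for 24 hours before infection and kept for 48 hours after it. Each group had 1 Illumina MouseRef-8 array, so there is no replicate and no test, and differences are described by size. The numbers of embryos and of transduced cells, and the promoter of the fusion, are not in the labels.

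Levels are the authors' normalized log2 values, and a level of 6 is used as the floor below which a value is only an upper bound. A difference against an array below the floor is a lower bound on its size. The spread beside a gene is the robust standard deviation of the same difference among the 501 genes nearest to it in level. It includes real differences between those genes and leaves out variation between independent cultures. Levels of different genes come from different probes and are not compared with each other. In RNA from whole cultures, fewer cells of a type and less RNA per cell cannot be told apart.

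Btg1, the deleted gene, stood at 11.87 and 11.97 on the wild-type arrays and at 9.02 and 9.97 on those of the knockout, control virus first. Whether its probe lies in the deleted stretch is not stated in the labels. Between 5869 and 5900 genes per array reached the floor. One array, that of Btg1-/- cells with ETV6-RUNX1, differed more from the rest. Among 1535 genes of mean level 10 or higher, differences had a robust standard deviation of 0.2402 to 0.296 where it was used and of 0.120 to 0.135 elsewhere. Of 3 c-Kit progenitor markers measured, Gata2 was above the floor on every array, and their summed level was 10.51, 12.00, 11.05 and 11.89 in the order wild type with control virus and ETV6-RUNX1, then knockout likewise. Kit itself was not analysed here. The T-cell markers were below it on all 4, and of 5 erythroid markers only Hbb-b1 exceeded it. Megakaryocyte markers summed to 6.65, 7.86, 6.55 and 7.82, with at most 1 of 2 above the floor. The sum follows Itga2b, at 5.87, 7.67, 6.17 and 7.73, high on both ETV6-RUNX1 arrays. Gp9 was below the floor on all 4, at 5.40, 4.84, 4.43 and 3.72, and did not share this order. B-cell progenitor markers had a summed log2 level of 14.82 to 14.83 on 3 arrays and 15.09 on that of Btg1-/- cells with ETV6-RUNX1, with 5 of 6 above the floor on each. Vpreb1 and Cd79b weigh most in this sum, and single markers differed from it. The list median was 10.89, 10.86, 10.30 and 11.20, and Rag1 stood at 10.79, 10.63, 9.62 and 11.09. Summed mast cell markers (5 of 5 above the floor) stood at 14.41, 15.52, 14.91 and 15.44 in the same order, and 3 granulocyte and monocyte markers at 7.73, 9.24, 7.77 and 8.68. Of these 3, only Fcgr3 was above the floor on every array, at 7.25, 9.03, 7.31 and 8.21. Mpo was below it on all, and Lyz2 passed it only with ETV6-RUNX1, at 6.13 in wild type and 6.67 in the knockout. The part of these differences in cell content in the chaperone values was not tested.

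Heat shock genes carry heat shock elements, inverted repeats of GAA blocks that HSF1 binds, so the promoter windows of the members were searched for them. The letters searched were GAANNTTC or TTCNNGAA for 2 blocks, each its own reverse complement. For 3 blocks they were GAANNTTC followed by NNGAA, or TTCNNGAA followed by NNTTC, so both strands are covered and a 3-block match contains 2-block ones. RefSeq windows of assembly GRCm38.p6, from 250 bases before to 50 after a start site, were listed for 56 of the 70 genes (73 windows). A 2-block match was in 17 of these windows (23.3%) and in 15.1% of all 32851 windows. The E-box CACGTG, also searched, was in 6 member windows (8.22%) and in 7.15% of all. A 3-block match was in 4 windows of 3 genes (5.48%) and in 0.603% of all windows. Those 4 windows overlap in pairs that hold the same matches, so the member share counts each matching stretch repeatedly. The 3 genes are Hspd1 (HSP60), Hspe1 (HSP10) and Dnajb6, a J-domain protein that suppresses aggregation. Members without a listed window, among them Hspa8, Hspa9, Hsp90aa1, Hsp90ab1 and Cct4, were not searched. Hspd1 and Hspe1 lie head to head with start sites 216 bases apart, so a window of each shares 285 bases and the same matches. A second listed Hspd1 window holds none. The 250 bases before the Hspe1 start (chr1:55087898-55088147, + strand) and before 1 of the 2 listed Dnajb6 starts, whose windows overlap (chr5:29735648-29735897, + strand), are shown because their genes had different values on the arrays. Capitals mark the 2-block matches, which overlap each other.
Hspe1: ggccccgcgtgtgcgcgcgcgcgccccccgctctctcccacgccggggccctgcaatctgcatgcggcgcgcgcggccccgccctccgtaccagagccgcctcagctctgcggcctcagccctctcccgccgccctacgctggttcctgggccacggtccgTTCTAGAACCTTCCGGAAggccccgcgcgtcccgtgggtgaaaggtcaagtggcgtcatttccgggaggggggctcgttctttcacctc
Dnajb6: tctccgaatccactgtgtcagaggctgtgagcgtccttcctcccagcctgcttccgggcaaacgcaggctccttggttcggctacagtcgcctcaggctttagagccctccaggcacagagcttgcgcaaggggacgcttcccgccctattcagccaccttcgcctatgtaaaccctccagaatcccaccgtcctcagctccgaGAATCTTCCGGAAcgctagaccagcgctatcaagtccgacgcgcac
In the Hspe1 window 3 overlapping matches ran from 89 to 72 bases before the start, and in the Dnajb6 window 2 ran from 46 to 34 bases before it. A match of letters describes the sequence and does not show that a factor was bound.

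The mitochondrial chaperonin genes had their lowest levels where Btg1 loss and ETV6-RUNX1 were combined. Hspd1 stood at 11.29 in wild type with control virus, 11.15 in wild type with the fusion, 11.48 in the knockout with control virus and 10.23 in the knockout with the fusion. The first 3 arrays lay close together and the fourth was low. With ETV6-RUNX1 in the knockout Hspd1 was 2.38-fold lower (log2 difference -1.25, spread 0.33), the 66th lowest value among the 6159 genes compared. In wild type the same difference was -0.15 (spread 0.14). Hspe1, which shares the promoter shown, stood at 11.08, 11.11, 11.20 and 10.47 in the same order. It too was low on the fourth array only, 1.67-fold lower with ETV6-RUNX1 in the knockout (-0.74, spread 0.33) against a difference of 0.03 in wild type. Dnajb6, which also holds a 3-block match, stood at 9.21, 9.16, 9.08 and 9.02. Its ETV6-RUNX1 difference in the knockout was -0.06, smaller than its spread of 0.36.

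Hspa9, the HSP70 of the mitochondrial matrix (mortalin), was ordered as Hspd1. Its levels were 12.16, 12.02, 12.29 and 11.46, and it was 1.77-fold lower with ETV6-RUNX1 in the knockout (-0.82, spread 0.28). Of the mitochondrial J-domain genes, Dnajc15, of the inner membrane import motor, stood at 11.11, 10.83, 10.96 and 10.42 and differed by -0.54 (spread 0.36). Dnaja3, the partner of HSPA9 in the matrix, differed by 0.08 and Dnajc30 by 0.42, neither beyond its spread (0.45 for each). Low values thus covered the matrix chaperonin and its HSP70 and not each mitochondrial member. Over the 6 mitochondrial members measured, of 8, the median difference was -0.64, beside 0.01 over all genes compared. For the same 6 genes ETV6-RUNX1 in wild type gave a median of -0.165, beside -0.02 over all genes.

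**Figure D1:**
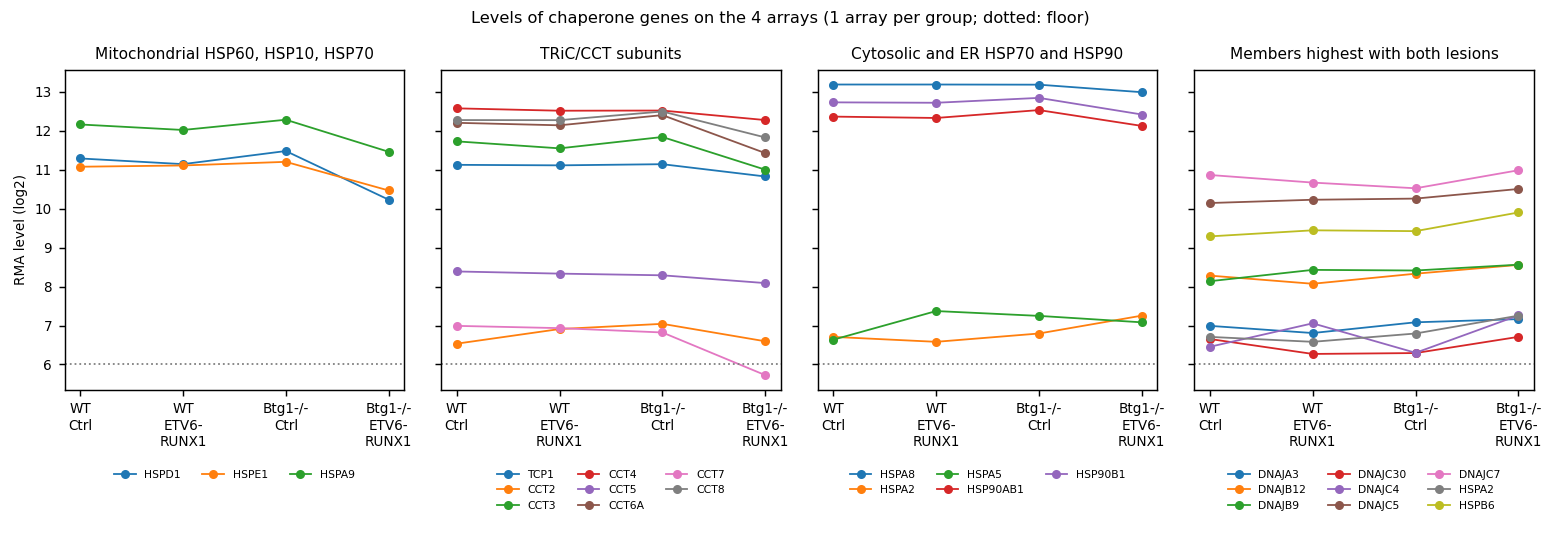
Normalized log2 level (y axis) of single genes on the 4 arrays (x axis), 1 point per array, with lines joining a gene's values and a dotted line at the floor of 6. HSPD1, HSPE1, HSPA9 and the CCT genes except CCT2 are lowest on the array of Btg1-/- cells with ETV6-RUNX1, HSPA8 varies little, and the last panel holds the 9 members whose highest level was on that array.

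All 8 measured subunit genes of TRiC/CCT were lower with ETV6-RUNX1 in the knockout, beside 48.5% of all genes, by unequal amounts. Cct6a stood at 12.21, 12.14, 12.40 and 11.43, with the wild-type pair first and control virus before the fusion in each pair. It was 1.97-fold lower with the fusion in the knockout (-0.98, spread 0.28). Cct3 followed with levels of 11.73, 11.55, 11.84 and 11.00 (1.79-fold lower, -0.84, spread 0.28), and Cct8 with 12.28, 12.28, 12.50 and 11.83 (1.59-fold lower, -0.67, spread 0.28). For these 3 genes the fourth array was low and the others lay within 0.5 of each other. Cct7 was below the floor on the fourth array, with levels of 6.99, 6.93, 6.82 and 5.73, which makes it at least 1.77-fold lower. The other 4 differed by less than 1.5-fold and by less than, or about, their spread: Cct2 by -0.45 (spread 0.49), Tcp1 by -0.32 (spread 0.31), Cct4 by -0.24 (spread 0.25) and Cct5 by -0.20 (spread 0.41). The class median was -0.56 with ETV6-RUNX1 in the knockout and -0.06 in wild type. In wild type 7 of the 8 lay below 0, beside 54.3% of all genes, none by as much as 1.5-fold, and Cct2 differed by 0.38 (spread 0.38). Cct6b was below the floor on all arrays.

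The HSP70 genes of the cytosol and endoplasmic reticulum (ER) did not follow one order. Hspa8, the constitutive cytosolic HSP70, was level, at 13.19 on the first 3 arrays and 12.99 on the fourth. Its difference of -0.19 with ETV6-RUNX1 in the knockout was smaller than its spread of 0.23. Hspa5 (BiP), the ER member, was lowest in the wild-type control, at 6.64 beside 7.37, 7.25 and 7.08. It was thus 1.67-fold higher with ETV6-RUNX1 in wild type (0.74, spread 0.37) and 1.53-fold higher with Btg1 loss under control virus (0.61, spread 0.31). These 2 comparisons share the wild-type control array, so its low value enters both. Hspa5 lies near the floor, and with a floor of 7 these differences were 0.37 and 0.25. Hspa2, best known from testis, had levels of 6.71, 6.58, 6.79 and 7.25, highest with both lesions and also near the floor. Hspa12b passed the floor only in the knockout with control virus, at 6.81 beside 5.04, 4.66 and 5.57. It entered the comparisons through that array alone, where it was at least 1.75-fold higher than in the wild-type control. Hspa1a, the heat-inducible HSP70 gene, stayed between 2.57 and 3.17, below the floor on every array. Hspa1l, Hspa12a, Hspa13, Hspa14 and both HSP110 genes of the set, Hspa4 and Hspa4l, were also below it throughout. Another HSP110 family gene, listed as HSP105, lies outside the name rule, was above the floor on every array and is described with the partner genes.

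Both measured HSP90 genes were lowest with both lesions by small amounts. Hsp90ab1, the constitutive cytosolic form, stood at 12.37, 12.33, 12.53 and 12.13, and Hsp90b1 (GRP94), the ER form, at 12.73, 12.72, 12.85 and 12.42. With ETV6-RUNX1 in the knockout they differed by -0.41 (spread 0.25) and -0.43 (spread 0.24), and in wild type by -0.04 and -0.01. Hsp90aa1, the inducible form, lay below the floor on all arrays. Of the small heat shock proteins, which hold unfolded clients without ATP, Hspb6 (HSP20) was measured throughout, at 9.29, 9.45, 9.42 and 9.90. Unlike the chaperonins it was highest with both lesions, by 0.48 over the knockout control (spread 0.33). Hspb8, which works with BAG3 in selective autophagy, passed the floor only in the knockout with control virus, at 6.18. Hspb1, Hspb2, Hspb3 and Hspb7 were below it on all 4 arrays.

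The J-domain genes had no common direction. With ETV6-RUNX1 in the knockout 8 of 17 measured lay above 0 and 9 below, beside 48.5% of all genes below 0, so that their split was about that of all genes. Their median was -0.03. Over the 20 other members compared, 18 lay below 0 and the median was -0.42. Of these 20, 3 were bounds (Cct7, Hspa12b and Hspb8). For them only the knockout control reached the floor, so they could only lie below 0. Dnajb1, the heat-inducible partner of HSPA8, stood at 11.55, 11.67, 11.71 and 11.66, and no single-factor difference of it reached 0.2. Dnajc4 was high on both ETV6-RUNX1 arrays, at 6.45, 7.06, 6.30 and 7.26. It was 1.95-fold higher with the fusion in the knockout (0.96, spread 0.47) and 1.52-fold in wild type (0.60, spread 0.37). With a floor of 7 these became 0.26 and 0.06. Dnajc10, a disulfide reductase of the ER, was low on both ETV6-RUNX1 arrays, at 7.20, 6.69, 7.49 and 6.79. It was 1.63-fold lower with the fusion in the knockout (-0.71, spread 0.44, or -0.49 with a floor of 7) and differed by -0.52 (spread 0.37, or -0.20 with a floor of 7) in wild type. Dnajc17, a nuclear J-domain protein, had levels of 6.73, 6.04, 6.72 and 6.19, low on the same pair of arrays (-0.69 in wild type and -0.52 in the knockout, with spreads of 0.45 and 0.46).

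Of the remaining J-domain genes some had ETV6-RUNX1 differences of opposite sign in wild type and knockout and others kept one sign. Dnajc7, which binds both HSP70 and HSP90, stood at 10.87, 10.67, 10.53 and 10.99. ETV6-RUNX1 went with a difference of -0.20 in wild type (spread 0.15) and 0.46 in the knockout (spread 0.36). Dnajc3 (P58IPK), an ER inhibitor of the kinase PERK, differed by 0.24 and -0.38, and Dnajb12 of the ER membrane by -0.21 and 0.23, none of these beyond its spread. Dnajc2, a ribosome-associated J-domain protein, was below 0 in both, by -0.15 and -0.41 (spreads 0.21 and 0.36). Dnajb9 (ERdj4), which is induced by the ER stress factor XBP1, was above 0 in both, by 0.29 and 0.15 (spreads 0.26 and 0.37). Dnajc5, the cysteine string protein of vesicles, stood between 10.15 and 10.51. Dnajc8 of the nucleus had its lowest level, 7.86, with both lesions, and differed by -0.30 with ETV6-RUNX1 in the knockout (spread 0.41).

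Counts over the set show how far these single values reach. With ETV6-RUNX1 in the knockout 37 members were compared, of which 5 only as bounds. At least 1.5-fold lower were 9 members (24.3%), beside 8.17% of all 6159 genes compared, and 1 was at least 1.5-fold higher, beside 8.02% of all genes. The 9 were Hspd1, Hspe1, Hspa9, Cct3, Cct6a, Cct7, Cct8, Hspa12b and Dnajc10. With a floor of 7, Hspd1, Hspe1, Hspa9, Cct3, Cct6a and Cct8 were past 1.5-fold lower, Dnajc10 was not, and Cct7 and Hspa12b were below the floor. Cct7 is a bound, and Hspa12b entered only through its high value in the knockout control. Below 0 lay 27 of the 37, beside 48.5% of all genes, and the median was -0.24. Of the bounds, Cct7, Hspa12b, Hspb8 and Dnajc16 could only lie below 0 and Dnajb2 only above it. For the 32 members never below the floor the median was -0.27, beside 0.01 over such genes. Of these 32, 23 lay below 0, and the share of all such genes was not counted. Hspd1 was the 1 member past 2-fold lower, beside 2.37% of all genes. At 1.5-fold, then, the members exceeded the background share on the low side only, and most of those members were chaperonin subunits.

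With ETV6-RUNX1 in wild type, 2 of 35 members were at least 1.5-fold higher (Hspa5 and Dnajc4), beside 4.47% of 6123 genes, and 1 was as much lower (Dnajc17), beside 2.99%. Below 0 lay 24, beside 54.3% of all genes, and the median of -0.06 lay near that of all genes, -0.02. With a floor of 7 none of the 26 members compared was past 1.5-fold. With Btg1 loss under control virus 2 of 37 were at least 1.5-fold higher (Hspa5, and Hspa12b as a bound), beside 2.25% of 6097 genes. None was as much lower, beside 1.84%. Members above 0 numbered 23, beside 49.6% of all genes, with a median of 0.09 beside -0.00. Hspa12b, Hspb8 and Dnajc16 passed the floor only in the knockout control, so they could only lie above 0. Dnajc27 passed it only in the wild-type control and could only lie below 0. Of the 32 members never below the floor, 20 lay above 0, and the share of all such genes was not counted. Of the chaperonin genes Hspd1 differed by 0.19 (spread 0.12), Cct8 by 0.22 (spread 0.11) and Cct6a by 0.20 (spread 0.11). Not all of them rose. Of the 8 TRiC/CCT genes 5 lay above 0, beside 49.6% of all genes, with a class median of 0.06. Cct4, Cct5 and Cct7 lay below 0, within their spreads. Neither of these comparisons uses the array of Btg1-/- cells with ETV6-RUNX1, and in each at most 2 members were past 1.5-fold in a direction.

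**Figure D2:**
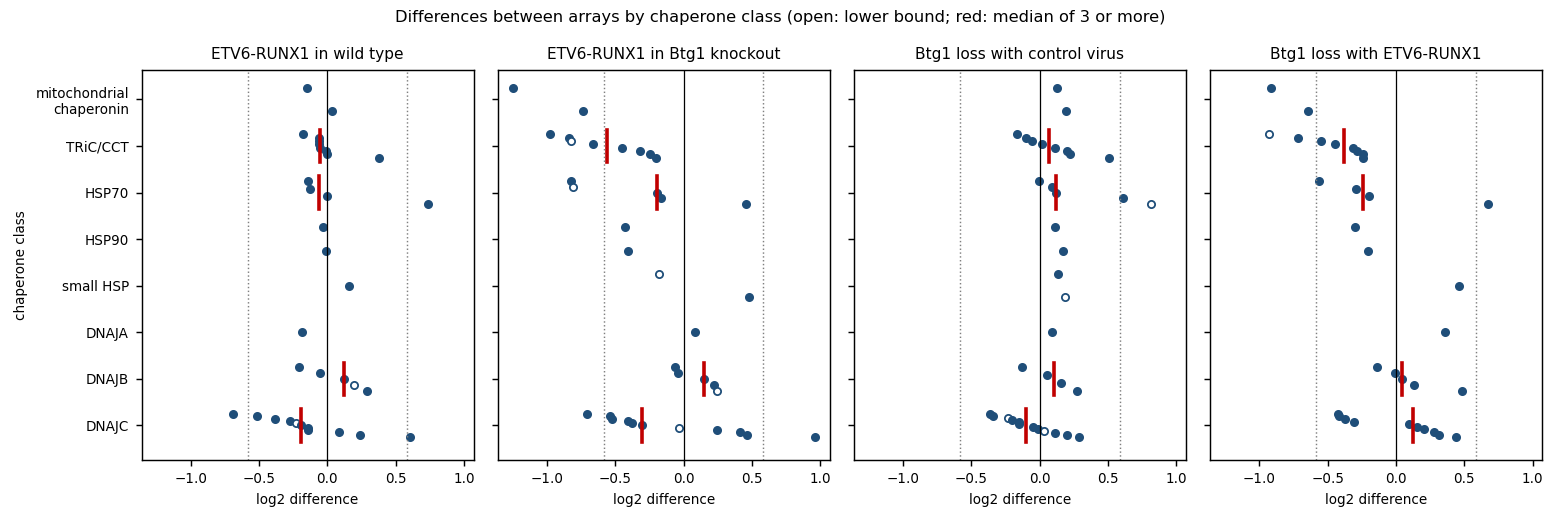
Log2 difference (x axis) of each measured member in 4 comparisons, by chaperone class (y axis). Filled points have both arrays above the floor, open points are lower bounds, red bars are medians of classes with 3 or more genes, and dotted lines mark 1.5-fold. TRiC/CCT and the mitochondrial chaperonin lie left of 0 in both comparisons that use Btg1-/- cells with ETV6-RUNX1, with TRiC/CCT medians of -0.56 and -0.38.

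With Btg1 loss in ETV6-RUNX1 cells 4 of 34 members were at least 1.5-fold lower, beside 5.06% of 6106 genes, and 1 was as much higher, beside 4.95%. The 4 were Hspd1 (-0.91, spread 0.27), Cct6a (-0.71, spread 0.24), Hspe1 (-0.64, spread 0.27) and Cct7, at least 1.91-fold lower. Hspa9 differed by -0.56 (spread 0.23) and Cct3 by -0.55 (spread 0.24), just short of 1.5-fold. Hspa2 was the higher member, by 0.67 (spread 0.45), or 0.25 with a floor of 7. Of the 34 members 22 lay below 0, beside 49.4% of all genes. All 8 TRiC/CCT genes lay below 0 here too, with a median of -0.38. The comparison shares the array of Btg1-/- cells with ETV6-RUNX1 with the preceding one in the knockout, so the low values of that array enter both.

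Both lesions together were set against the wild-type control. At least 1.5-fold lower were 7 of 35 members, beside 7.66% of 6173 genes, and 2 were as much higher, beside 8.00%. Hspd1 was lowest, 2.08-fold below the control (-1.06, spread 0.30), the 1 member past 2-fold, beside 1.78% of all genes. Next came Cct7 as a bound, Cct6a (-0.78), Cct3 (-0.73), Hspa9 (-0.70), Dnajc15 (-0.69) and Hspe1 (-0.61). Dnajc4 and Hspb6 were the 2 higher members, by 0.81 (0.26 with a floor of 7) and 0.61. Below 0 lay 22 of 35, beside 50.9% of all genes. Hspd1, Hspe1, Hspa9, Cct3 and Cct6a were thus low against both the wild-type control and the knockout control. Both comparisons use the array of Btg1-/- cells with ETV6-RUNX1, so its low values enter each and they are not independent.

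With both factors crossed, the effect of the fusion in the knockout can be set against its effect in wild type. For 9 of 32 members its effect was at least 1.5-fold more negative in the knockout, beside 9.35% of 5442 genes, and for 3 more positive, beside 8.47%. The 9 were Hspd1 (-1.10), Cct6a (-0.91), Hspa5 (-0.90), Cct2 (-0.82), Hspe1 (-0.77), Hspa9 (-0.68), Cct8 (-0.66), Cct3 (-0.66) and Dnajc3 (-0.62). For Hspa5 and Cct2 the wild-type control, at 6.64 and 6.53, was the lowest array and enters the value. Below 0 lay 23 of the 32, beside 49.7% of all genes. The 3 more positive were Dnajc30 (0.80), Dnajc7 (0.66) and Hspa2 (0.59). Dnajc30 stood at 6.65, 6.27, 6.29 and 6.71, high in the wild-type control and with both lesions, and close to the floor. Of these 32 members, 18 had their lowest level with both lesions, beside 34.7% of all such genes, and 9 had their highest level there, beside 34.2%. In the knockout with control virus 12 were at their highest, beside 24.7% of all genes, and 2 at their lowest, beside 23.0%. The wild-type arrays without and with the fusion held the lowest level of 6 members each, beside 20.3% and 22.0%, and the highest of 9 and 2, beside 22.6% and 18.5%.

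Genes of chaperone partners were counted from lists that hold no member. Among HSP90 and HSP70 cochaperones, 6 of 21 measured were at least 1.5-fold lower with ETV6-RUNX1 in the knockout, beside 8.17% of all genes, and 1 was as much higher, beside 8.02%. Below 0 lay 17, beside 48.5% of all genes. The 6 were Ptges3 (p23), which closes the HSP90 cycle (-0.84, spread 0.35), the HSP90-binding isomerase genes Fkbp4 (-0.79, spread 0.28), Fkbp5 (-0.75) and Ppid (-0.69), the HSP70 exchange factor gene Bag5 (-0.78), and Ahsa1, which speeds the HSP90 ATPase (-0.78). Ptges3 stood at 9.80, 9.84, 9.75 and 8.90, low on the fourth array only. Stip1, the adaptor between HSP70 and HSP90, differed by -0.35 (spread 0.29). Bag3, the partner of HSPB8, was the 1 higher gene. Its levels were 6.52, 7.95, 7.43 and 8.05, so that it was lowest in the wild-type control and 2.69-fold higher with ETV6-RUNX1 in wild type (1.43, spread 0.32).

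All 9 measured genes of mitochondrial folding and proteolysis lay below 0 with ETV6-RUNX1 in the knockout, beside 48.5% of all genes, with a median of -0.50. The protease gene Htra2 (-0.93, spread 0.42) and Afg3l2, at least 1.93-fold lower, passed 1.5-fold, beside 8.17% of all genes. Trap1, the mitochondrial HSP90, differed by -0.52 (spread 0.35), and Grpel1, the exchange factor of HSPA9, by -0.47. Of 12 measured genes of ER folding, 4 were at least 1.5-fold lower, beside the same 8.17%. They were the lectin chaperone calreticulin (Calr, -1.03, spread 0.41), Creld2 (-0.91), the transcription factor gene Xbp1 (-0.78) and the disulfide isomerase gene Pdia4 (-0.61). Below 0 lay 8 of the 12, beside 48.5% of all genes. The 4 above 0 were Ddit3 (0.55, spread 0.45), Syvn1 (0.37, spread 0.23), Herpud1 (0.31, spread 0.24) and Sil1 (0.13, spread 0.45), none past 1.5-fold. Prefoldin and CCT cofactor genes, which deliver or fold clients with TRiC, lay below 0 in 8 of 9, beside 48.5% of all genes, none past 1.5-fold. Hsf1 itself stood at 10.83, 10.84, 10.78 and 10.43, and Hsf2 at 7.41, 7.66, 7.26 and 6.73. With Btg1 loss in ETV6-RUNX1 cells Hsf2 differed by -0.92 (spread 0.41), Pfdn4 by -0.63, Ptges3 by -0.94, Fkbp5 by -0.63, Bag5 by -0.60, Calr by -0.85 and Cdc37l1 by 0.61. In that comparison 3 of 21 cochaperone genes were at least 1.5-fold lower and 1 as much higher, beside 5.06% and 4.95% of all genes. As much lower were 1 of 9 prefoldin and CCT cofactor genes, 1 of 12 ER folding genes and 1 of 2 heat shock factor genes. Of the 9 mitochondrial genes none was. Through RefSeq synonyms 3 more family genes were found under older names. HSP105 (Hsph1, of the HSP110 family) stood at 10.22, 10.16, 10.41 and 9.54, and Hspbp1, an exchange factor of HSP70 listed under a RIKEN clone name, at 8.66, 8.70, 8.88 and 8.07, each lowest on the fourth array. Dph4 (Dnajc24, a J-domain gene) stood at 6.14, 5.83, 5.82 and 5.59, above the floor in the wild-type control only.

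**Figure D3:**
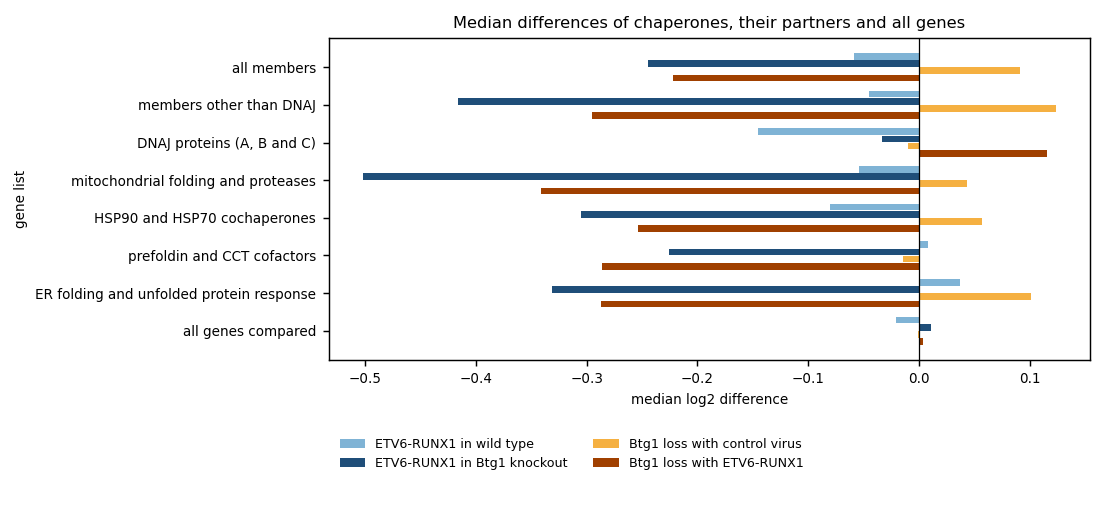
Median log2 difference (x axis, bars from 0) over the measured genes of the chaperone set, its J-domain and other members, 4 lists of partner genes and all genes compared (y axis), for the 4 single-factor comparisons. The 2 comparisons that use Btg1-/- cells with ETV6-RUNX1 have medians below 0 in each list but that of J-domain genes with Btg1 loss (0.12), while all genes lie between -0.02 and 0.01.

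Of the 70 members, 32 reached the floor on each array, 6 on some and 32 on none. The 6 were Cct7, Dnajb2, Dnajc16, Dnajc27, Hspa12b and Hspb8. Dnajb2 reached it only with ETV6-RUNX1, at 6.19 in wild type and 6.24 in the knockout, Dnajc16 only in the knockout control, at 6.03, and Dnajc27 only in the wild-type control, at 6.23. Hspbap1, the partner of a small heat shock protein, stood between 6.30 and 6.59. The 32 below the floor had levels between 2.10 and 5.50 and included 6 DNAJB, 11 DNAJC and 5 HSP70 genes, with Dnaja1 and Dnaja2. For these no order of arrays is given, since a value under the floor does not separate a low level from none.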

How the data were processed

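Log2 levels were deposited by the authors; the file header names ArrayStar and the submitters' processing notes name RMA. RMA makes the arrays' distributions alike, so a shift of all genes cannot be seen. The rule by which probes became 1 value per gene is unknown here. The table of 18113 genes and the authors' workbook held the same levels (largest difference 0.0). The 8 columns of raw signals and detection p-values carry names that match no sample label and were not used, so the planned normexp normalization was not run.

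From the levels, log2 differences of 2 arrays were computed for 5 comparisons, with values under 6 raised to 6 and genes kept if either array reached 6. The spread is 1.4826 times the median absolute deviation over a gene and 250 neighbors in level on each side. An additive model with 1 residual degree of freedom was not fitted. Members, lists, compartments and the floor were chosen with earlier results of these data known. Members past 1.5-fold in a single-factor comparison and main members of each class were named. Calculations used Python 3.11.15, numpy 2.4.6, pandas 2.3.3 and matplotlib 3.10.9 and were tested on simulated arrays. The number of arrays limits the precision.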

Additional observations from a re-analysis of the deposited data

Results flagged for a closer look

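These results are listed because effects ran opposite ways in the 2 backgrounds, each by more than its spread. With 1 array per group the difference was not tested. Btg1 effects had the same sign with both viruses in 46.9% of 32 members, beside 43.9% of 5442 genes, so opposite signs were common. For ETV6-RUNX1 effects the shares were 65.6% and 56.6%. How many of all genes passed both spreads was not counted. Each second effect uses the array of Btg1-/- cells with ETV6-RUNX1. With control virus Hsp90b1, Hspe1 and Hspa9 were barely past their spreads of 0.11, 0.12 and 0.11. ETV6-RUNX1 and control virus gave opposite signs of the Btg1 effect for Hspd1 (0.19 with control virus and -0.91 with ETV6-RUNX1, a difference of -1.10), Cct6a (0.20 and -0.71, difference -0.91), Hspe1 (0.13 and -0.64, difference -0.77), Hspa9 (0.12 and -0.56, difference -0.68), Cct8 (0.22 and -0.44, difference -0.66) and Hsp90b1 (0.11 and -0.30, difference -0.42). The signs were turned round for Dnajc30 (-0.36 and 0.44, difference 0.80) and Dnajc7 (-0.34 and 0.32, difference 0.66). Dnajc7 also had opposite ETV6-RUNX1 effects in wild type and knockout, -0.20 and 0.46, and the difference of 0.66 is the same value read the other way.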

How the results depend on the processing

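The median difference of the members kept its sign in all 5 comparisons under all 8 alternatives. Of these, the authors' workbook holds the same levels, so its result could not differ, and another alternative only left out Hspbap1. Ranges were -0.30 to -0.17 for ETV6-RUNX1 in the knockout and -0.08 to -0.04 for it in wild type. For Btg1 loss without and with ETV6-RUNX1 they were 0.04 to 0.11 and -0.24 to -0.13. They were -0.29 to -0.19 for both lesions and -0.26 to -0.16 for the difference of ETV6-RUNX1 effects. Counts depended on the floor. Past 1.5-fold, in the order ETV6-RUNX1 in wild type and knockout and Btg1 loss without and with ETV6-RUNX1, the counts were 3, 10, 2 and 5; a floor of 7 gave 0, 6, 0 and 3, and no floor gave 13, 18, 11 and 14, with 22 in place of 9 for both lesions. Past 2-fold they were 0, 1, 0 and 0, and 1 for both lesions; a floor of 5 gave 4, 2 and 1 in the last 3 of these and 3 for both lesions, and no floor gave 4, 6, 6, 4 and 8. With genes above the floor on all arrays, the count past 1.5-fold for Btg1 loss under control virus was 1. With an equal 75th percentile the count past 2-fold for both lesions was 2. Without a floor 28 of 70 members, in place of 18 of 32, were lowest with both lesions. The 18 of 32 stand beside 34.7% of all genes. For the alternatives the shares of all genes were not counted, so their counts cannot be set against a background. Values below the floor enter the counts made without a floor. No paired analysis was possible because each group has 1 array.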
